A study of Mus musculus with 3 samples.

Results

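The basophil and mast cell lineage of mouse bone marrow was followed as 574 cells out of the 31292 cells that passed the filters in 3 droplet single-cell RNA libraries. A cell was taken as a member when at least 1 unique molecular identifier (UMI, a count of 1 captured RNA molecule) was read for at least 4 of 6 genes, namely Prss34, Mcpt8, Ms4a2, Fcer1a, Cpa3 and Cyp11a1. The levels of these 6 genes therefore chose the cells, and they are given below as a description. The rule found 218 cells in the Control library, 180 in the IR library and 176 in the IR+CBD library.

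All mice were male C57BL/6 animals, and the marrow was flushed from the femurs 14 days after the irradiation of the other groups. Control mice were not irradiated, IR mice received 6.0 Gy of Cobalt-60 gamma rays with solvent injections, and IR+CBD mice received the same dose with 4 intraperitoneal injections of cannabidiol at 50 mg/kg each, before and after the exposure. The age of these animals was not given in the sources used here. Each library pooled cells of 3 mice that had been sorted as Lin-Kit+, Lin-Kit- and Lin+ and mixed at 5:4:1, so shares of cells are shares of that mix and not of the marrow. With 1 library per group there was no replicate, no test between groups was made, and every interval below covers counting error only. Treatment and library cannot be told apart in this design.

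Basophils are short-lived granulocytes that mature in the marrow, and mast cells leave it as precursors and complete their maturation in tissues. Both carry the high-affinity IgE receptor, whose alpha chain (Fcer1a) binds IgE while the beta chain (Ms4a2) and the gamma chain (Fcer1g) pass on the signal, and both store histamine and proteases in granules. The transcription factor GATA2 is needed to form both lineages, CEBPA favours the basophil fate and MITF the mast cell fate. Mcpt8 and Prss34 encode serine proteases made mainly by mouse basophils, Cpa3 encodes carboxypeptidase A3 of basophil and mast cell granules, and Cyp11a1 encodes the enzyme that opens steroid synthesis from cholesterol.

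The upstream sequences of 5 of the 6 genes are shown because GATA2 is one of the measured regulators and its family binds the letters AGATAA or TGATAA. Each run is the 250 bases before the transcription start in RefSeq's GRCm38.p6 annotation, written 5′ to 3′ on the gene's strand, and capitals mark AGATAA or TGATAA on either strand (TTATCT or TTATCA when read on the other one).
Cpa3: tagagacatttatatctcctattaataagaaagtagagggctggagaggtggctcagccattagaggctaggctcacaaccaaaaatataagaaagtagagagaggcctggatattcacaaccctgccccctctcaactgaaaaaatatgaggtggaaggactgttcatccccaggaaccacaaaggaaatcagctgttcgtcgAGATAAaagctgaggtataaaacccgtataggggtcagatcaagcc
Prss34: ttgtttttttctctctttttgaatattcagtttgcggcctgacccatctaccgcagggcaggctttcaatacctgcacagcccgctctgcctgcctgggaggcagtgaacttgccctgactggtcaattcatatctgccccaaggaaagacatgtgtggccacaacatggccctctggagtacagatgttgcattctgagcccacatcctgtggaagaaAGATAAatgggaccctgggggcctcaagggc
Ms4a2: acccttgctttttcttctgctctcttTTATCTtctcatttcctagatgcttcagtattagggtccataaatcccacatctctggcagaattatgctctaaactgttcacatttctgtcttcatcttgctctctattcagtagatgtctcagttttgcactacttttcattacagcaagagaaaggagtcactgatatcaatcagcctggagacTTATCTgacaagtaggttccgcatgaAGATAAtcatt
Fcer1a: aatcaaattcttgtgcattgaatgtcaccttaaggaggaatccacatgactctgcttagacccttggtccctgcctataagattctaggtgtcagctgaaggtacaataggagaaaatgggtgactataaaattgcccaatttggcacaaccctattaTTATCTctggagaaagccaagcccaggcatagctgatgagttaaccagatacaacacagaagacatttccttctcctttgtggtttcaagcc
Mcpt8: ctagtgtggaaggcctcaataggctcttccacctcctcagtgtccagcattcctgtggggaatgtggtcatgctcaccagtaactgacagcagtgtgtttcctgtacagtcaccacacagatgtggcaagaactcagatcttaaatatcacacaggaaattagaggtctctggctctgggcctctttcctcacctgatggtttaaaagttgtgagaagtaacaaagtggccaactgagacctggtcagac
The windows lie at chr3:20242182-20242431 (minus strand) for Cpa3, chr17:25298144-25298393 (plus strand) for Prss34, chr19:11623720-11623969 (minus strand) for Ms4a2, chr1:173227230-173227479 (minus strand) for Fcer1a and chr14:56085198-56085447 (minus strand) for Mcpt8. Ms4a2 held 3 matches, at 224, 37 and 11 bases before the start, while Cpa3 held 1 at 46 bases, Prss34 1 at 31 bases and Fcer1a 1 at 92 bases. No match was found in the Mcpt8 window or in either of the 2 windows of Cyp11a1. Of further genes named below, Cd200r3, Il6 and Slc18a2 held a match, while Gata2, Hdc, Il4, Fcer1g and Csf1 held none. Of all 32851 windows in the table, 16.6% held at least 1 match, and of all genes 18.8% held 1 in any window. A match is a description of letters, not a bound site.

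The libraries held 177806843 to 206932522 UMIs each, and 10273 to 10674 cells per library remained once barcodes below 200 genes or above 5% mitochondrial UMIs had been set aside. Lineage cells had median UMI totals of 16773, 19558.5 and 13975.5 in Control, IR and IR+CBD, against 12319, 14064 and 12428 in the other kept cells. Summed over cells, 4633536, 4009606 and 2932864 lineage UMIs were available, and levels are given as UMIs of a gene per 1000000 of these (CPM). The 6 genes of the rule took 1.45%, 1.22% and 1.34% of them. Between 76 and 92 barcodes of a library were shared with another library. No lineage cell shared its barcode with a lineage cell of another library. Whether a shared barcode belonged to a lineage cell in a single library was not tested. Scrublet marked 39 of 218, 24 of 180 and 30 of 176 lineage cells as possible doublets, and they were kept. Among all kept cells it marked 911 of 10674, 856 of 10345 and 844 of 10273, a smaller share in each library.

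The cells carried Gata2, which serves both lineages, while several mast cell markers were absent. Gata2, which the rule did not use, was read in 96.3%, 95.6% and 96.6% of lineage cells in Control, IR and IR+CBD, at 436, 424 and 506 CPM, against 26.0, 29.1 and 29.8 CPM in all other cells. A set of B cells, with at least 3 of 5 B cell marker genes, served as a reference that should lack these genes; 3.42%, 4.28% and 3.30% of them held a Gata2 UMI at median depths of 4112, 3861.5 and 3425.5 UMIs. Among the mast cell markers, the tryptase gene Tpsab1, the protease gene Mcpt4 and the receptor gene Mrgprb2 had 0 UMIs in lineage cells of all 3 libraries, and the tryptase gene Tpsb2 had 0 in Control and IR+CBD. Kit, the stem cell factor receptor, stood at 74.9, 75.6 and 82.9 CPM, close to its 64.0, 58.4 and 65.3 CPM in the other cells. Those other cells include sorted Lin-Kit+ cells. Slc18a2, a further marker of the list, was at 166, 152 and 197 CPM, which is 19.3, 19.9 and 26.5 times its level in other cells. Together the 8 mast cell markers summed to 253, 281 and 332 CPM, against 89.4, 78.9 and 88.4 CPM in other cells.

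A handful of cells expressed a mast cell protease gene. Cma1, the mast cell chymase gene, had 2 UMIs in 1 cell in Control, 152 in 9 cells in IR and 100 in 7 cells in IR+CBD. Cells with at least 2 Cma1 UMIs, Gzmb UMIs and no Prss34 UMI numbered 1, 5 and 3, and they held 2, 148 and 94 of those Cma1 UMIs. Kit was at 113, 296 and 848 CPM in these cells. They were chosen after their values were seen, and their number is too small to set the libraries apart.

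A second subset carried eosinophil granule transcripts. In 47 cells, 15 of the Control, 17 of the IR and 15 of the IR+CBD cells, Prg2 (major basic protein) reached at least 10 UMIs per 10000, and it ran from 14.1 to 2221 UMIs per 10000 there. Of the other 527 cells, 498 had no Prg2 UMI at all, and the highest value among them was 9.01. Epx, the eosinophil peroxidase gene, was present in 15 of 15, 17 of 17 and 14 of 15 of these Prg2-high cells. Their Gata2 level was 55.6, 63.2 and 110 CPM in Control, IR and IR+CBD, against 473, 455 and 543 CPM in the rest of the lineage. Cebpe, a factor of late granulocyte differentiation, was at 478, 907 and 657 CPM against 30.6, 27.3 and 11.9 CPM. Cebpa ran the other way, at 19.3, 56.9 and 55.1 CPM against 133, 144 and 152 CPM. Basophil genes outside the rule were mixed in them. Cd200r3 was low, at 2.42, 15.8 and 19.7 CPM against 115, 137 and 221 CPM, and Il3ra was at 29.0, 60.1 and 55.1 CPM against 89.6, 110 and 114 CPM. Hdc was not low throughout, at 490, 322 and 330 CPM against 426, 397 and 429 CPM. Ifitm1 was at 1085, 724 and 1223 CPM against 1310, 1299 and 1744 CPM. The rule thus admitted cells whose leading genes do not match the name of the lineage, and results that rest on them are also given without them. Scrublet marked 3 of 15, 0 of 17 and 9 of 15 of them, and whether they were doublets was not tested.

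**Figure D1:**
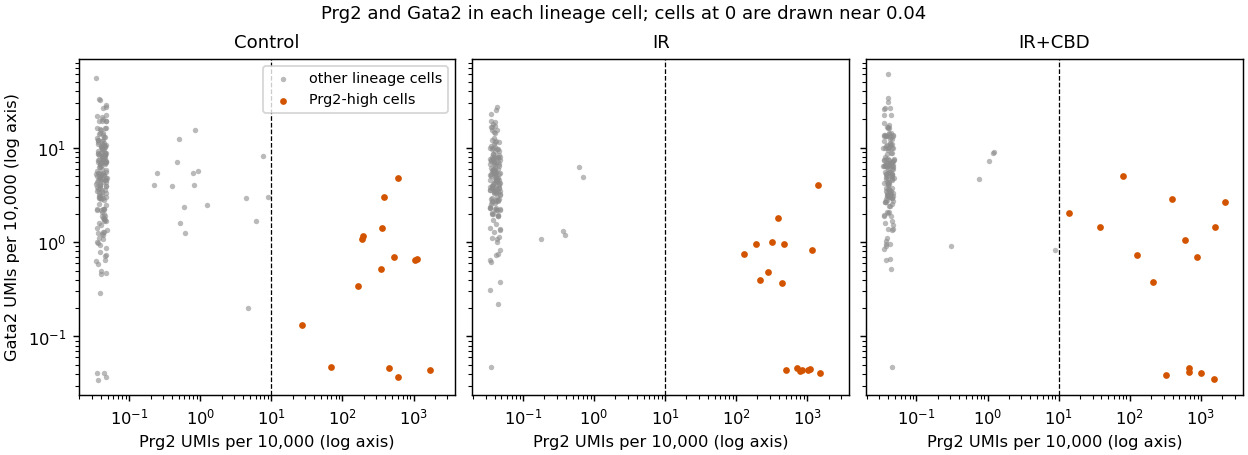
Each point is 1 lineage cell of the Control, IR or IR+CBD library, with Prg2 UMIs per 10000 on the x axis and Gata2 UMIs per 10000 on the y axis, both on log axes, and cells at 0 drawn near the lower end. The 47 Prg2-high cells (orange, right of the dashed line at 10) sit apart from the other 527, of which 498 are at 0 for Prg2, and lie mostly below them for Gata2.

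Transcripts of other cell types were also read in lineage cells. Neutrophil markers summed to 8282, 5807 and 3981 CPM in Control, IR and IR+CBD lineage cells, below the 32938, 34204 and 40747 CPM of other cells, with all 8 detected; the median cell held 6.34, 5.56 and 5.37 of these UMIs per 10000. Erythroid markers summed to 346, 829 and 139 CPM, B cell markers to 150, 351 and 261 CPM, and the 7 eosinophil markers to 3610, 5341 and 6426 CPM. The T cell gene Cd3e was at 0 in all 3 libraries. In all, 28, 35 and 26 cells had at least 30 UMIs per 10000 of the markers of at least 1 other cell type. The cut used shorter lists for some types, for example without Elane for neutrophils and with only Hba-a1 and Hbb-bs for erythroid cells. The part of these cells in the results was not tested beyond giving values without them.

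Genes outside the rule that set the lineage apart from the other cells encoded immune receptors, cytokines and amine handling. Cd200r3, an activating receptor of basophils and mast cells, was at 105, 127 and 204 CPM against 0.205, 0.328 and 0.446 CPM in other cells, which is 510, 388 and 457 times as high. Il6 was 179, 219 and 154 times as high and Il4, the type 2 cytokine gene, 81.0, 80.5 and 98.4 times. These 3 led the ranking by the smallest ratio of the 3 libraries. Csf1 (43.2, 36.6 and 49.2 times) and Ccl3 (14.6, 19.7 and 23.1 times) were the other cytokine or chemokine genes among the top 20. Slc18a2, which loads histamine into vesicles, was 19.3, 19.9 and 26.5 times as high. The adhesion gene Cdh1 (53.3, 113 and 120 times) and the receptor gene Gpr34 (50.4, 69.4 and 86.4 times) stood there too. Prg2, Prg3 and Epx also ranked among the 20, at 90.02, 66.03 and 90.5 times for Prg2, and these reads came almost wholly from the Prg2-high cells. Since all these cells were chosen by genes that go with the lineage, the ratios describe the lineage and were not tested.

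The lineage made up a similar, small share of each library. It was 2.04% of kept cells in Control (95% Clopper-Pearson interval 1.78 to 2.33), 1.74% in IR (1.497 to 2.01) and 1.71% in IR+CBD (1.47 to 1.98). The ratio of shares was 0.852 for IR over Control (exact 95% interval 0.695 to 1.04), 0.985 for IR+CBD over IR (0.795 to 1.22) and 0.839 for IR+CBD over Control (0.684 to 1.03), so a difference in share was not detectable at this depth, and a loss to 0.695 of the Control share is within the interval for IR. Without the Prg2-high cells the shares were 1.90%, 1.58% and 1.57%. With every cell thinned to 3000 UMIs before the rule was applied, 147 of 9265 (1.59%), 117 of 8953 (1.31%) and 117 of 8607 (1.36%) cells met it, with 2, 1 and 3 lineage cells left out as too shallow. Cells just outside the rule, with 3 of the 6 genes, numbered 102, 102 and 91, and their Gata2 level was 119, 195 and 226 CPM. Cells just inside, with 4 genes, numbered 52, 38 and 43 at 177, 282 and 335 CPM, and cells with all 6 numbered 88, 95 and 76 at 616, 572 and 673 CPM. The barcodes set aside by the filters held 1, 5 and 2 cells that met the rule.

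**Figure D2:**
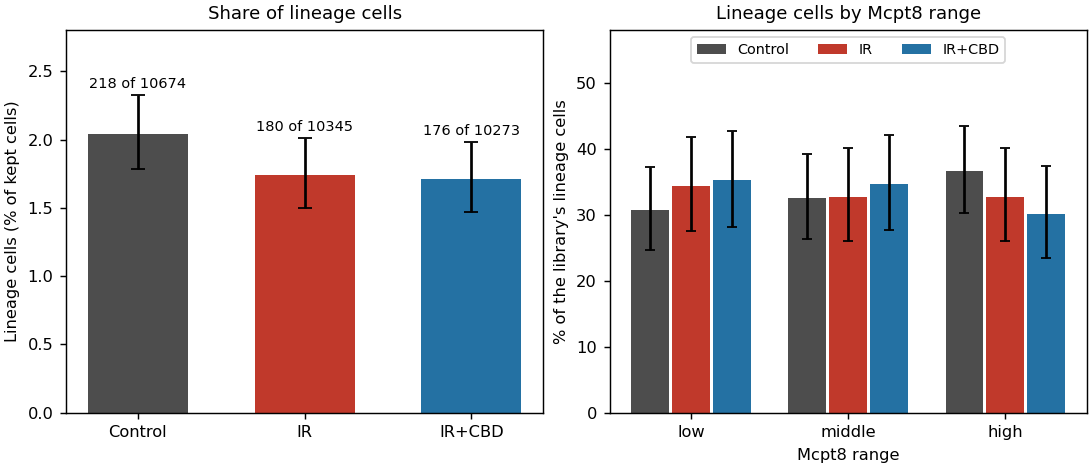
Left, lineage cells as a percentage of kept cells in each library, with exact 95% intervals and the counts. Right, the low, middle and high Mcpt8 range as a percentage of each library's lineage cells, with exact 95% intervals; the lineage share runs from 1.71% to 2.04% and the intervals overlap in both panels.

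Among the rule genes, Cpa3 and Ms4a2 were alike in the 3 libraries, while Fcer1a and Prss34 were not. The median cell of Control, IR and IR+CBD held 19.3, 19.3 and 19.7 Cpa3 UMIs per 10000, with the 10th percentile at 3.55, 5.26 and 5.97 and the 90th at 49.5, 45.1 and 52.1. For Ms4a2 the medians were 6.59, 6.43 and 6.27 UMIs per 10000. The summed levels were 1868, 2001 and 2061 CPM for Cpa3 and 562, 581 and 613 CPM for Ms4a2. Cyp11a1 was at 177, 192 and 192 CPM.

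Mcpt8 spread widely among the cells of 1 library and little between libraries. Its median was 23.8, 22.2 and 20.8 UMIs per 10000 in Control, IR and IR+CBD, with the 10th percentile at 0.778, 0.624 and 0.75005 and the 90th at 248, 189 and 215. The summed level of 5128, 4366 and 4823 CPM is carried by the high cells, and the spread between cells is far wider than the counting intervals around its ratios. The IR level was 0.851 times that of Control (0.835 to 0.868), and the IR+CBD level 1.10 times that of IR (1.08 to 1.13). Gata2 had medians of 4.83, 4.14 and 5.11 UMIs per 10000, and its summed level in IR was 0.974 times that of Control (0.912 to 1.04), with IR+CBD at 1.19 times IR (1.11 to 1.28). Both genes had largely overlapping cell distributions.

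Fcer1a was higher in both irradiated libraries. The median cell held 0.291 Fcer1a UMIs per 10000 in Control, against 4.54 in IR and 3.88 in IR+CBD, and 100 of 218 (45.9%), 34 of 180 (18.9%) and 37 of 176 (21.0%) cells had none. The summed level was 225, 549 and 535 CPM, which puts IR at 2.44 times Control (2.27 to 2.63), with ratios of 0.974 (0.912 to 1.04) for IR+CBD over IR and 2.38 (2.20 to 2.58) for IR+CBD over Control. Because the gene is part of the rule, it was also read in cells chosen by at least 4 of the other 5 genes. Of those, 105 of 205 Control cells (51.2%, 44.2 to 58.2), 122 of 156 IR cells (78.2%, 70.9 to 84.4) and 115 of 152 IR+CBD cells (75.7%, 68.0 to 82.2) held an Fcer1a UMI, at 232, 588 and 565 CPM. Only 0.0828%, 0.337% and 0.198% of the B cell reference held one, at their lower depth. In the cells outside the lineage the level was 0.2997, 0.913 and 0.885 CPM, in the same order of libraries. The level was therefore higher in the IR and the IR+CBD library than in Control also where the gene had no part in choosing the cells.

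Prss34 ran in the opposite direction. The median cell held 23.8 UMIs per 10000 in Control, against 6.74 in IR and 4.79 in IR+CBD, and 35 (16.1%), 47 (26.1%) and 55 (31.3%) cells had none. The summed level was 6532, 4509 and 5154 CPM. In cells chosen by the other 5 genes, 156 of 191 Control cells (81.7%, 75.4 to 86.9), 123 of 170 IR cells (72.4%, 65.0 to 78.9) and 111 of 166 IR+CBD cells (66.9%, 59.2 to 74.0) held a Prss34 UMI, against 1.82%, 1.18% and 1.33% of the B cell reference. The share in IR+CBD was below that in Control with intervals that do not overlap, while the IR interval overlaps both. With 3 of the other 5 genes asked for, the shares were 63.1% (57.3 to 68.7) in Control, 48.5% (42.5 to 54.6) in IR and 46.5% (40.4 to 52.8) in IR+CBD, and the Control interval overlaps neither of the others. Lineage cells were shallowest in IR+CBD and deepest in IR, and the part of depth in these shares was not tested. Summed over the cells with 4 of the other 5 genes, Prss34 in IR was at 0.661 times its Control level (0.648 to 0.673), and in IR+CBD at 1.13 times its IR level (1.11 to 1.16).

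**Figure D3:**
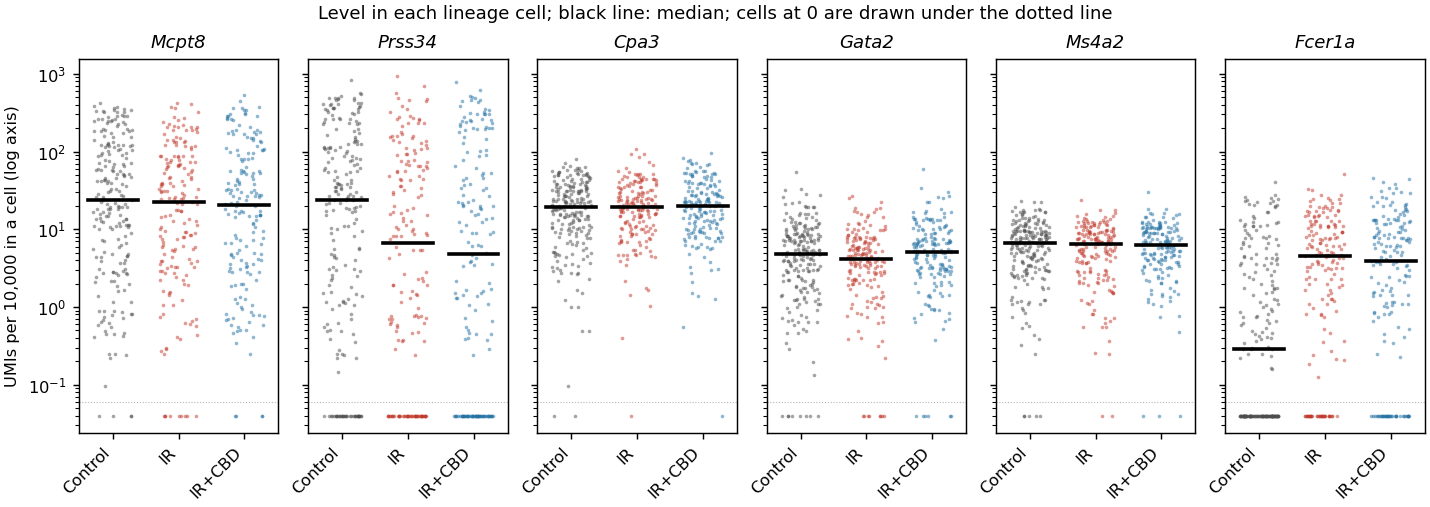
UMIs per 10000 in each lineage cell (log axis) for Mcpt8, Prss34, Cpa3, Gata2, Ms4a2 and Fcer1a in the Control, IR and IR+CBD libraries; black lines are medians and cells at 0 lie under the dotted line. The Fcer1a medians are 0.291, 4.54 and 3.88 and the Prss34 medians 23.8, 6.74 and 4.79, whereas the Cpa3 medians are 19.3, 19.3 and 19.7.

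To describe maturation, the 574 cells were cut into 3 ranges of equal size by Mcpt8, at 7.35 and 56.4 UMIs per 10000. The ranges are stretches of a continuum, with 23 and 39 cells within 1.2-fold of the cuts. Since the rule asks for only 1 UMI per gene, deep cells can enter the low range with very low levels. A Control cell of 103476 UMIs, for example, held 0.0966 Mcpt8 and 0.0966 Cpa3 UMIs per 10000. Whether such low-range cells were immature lineage cells, other progenitors or doublets was not tested. Low, middle and high cells numbered 67, 71 and 80 in Control, 62, 59 and 59 in IR, and 62, 61 and 53 in IR+CBD. The high range held 36.7% of Control lineage cells (30.3 to 43.5), 32.8% in IR (26.0 to 40.2) and 30.1% in IR+CBD (23.4 to 37.5), and the low range 30.7%, 34.4% and 35.2%. Against Control, the high share was 0.893 times as large in IR (0.627 to 1.27) and 0.821 times in IR+CBD (0.569 to 1.18), within counting error of 1. As a share of all kept cells, high cells made up 0.749%, 0.570% and 0.516% of the libraries in the same order. That is 0.761 times Control for IR (0.534 to 1.08) and 0.688 times Control for IR+CBD (0.477 to 0.986). The upper limit of the latter lay just under 1, among 3 ranges compared in each of 3 pairs of libraries. Prg2-high cells fell in the low and middle ranges, apart from 1 IR cell.

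Gata2 and Cpa3 were higher from range to range in each library, although neither was used to cut them. Gata2 was at 201, 401 and 853 CPM in the low, middle and high range of Control, 290, 387 and 680 CPM in IR and 374, 419 and 904 CPM in IR+CBD. Without the Prg2-high cells the low-range values were 229, 309 and 388 CPM. Cpa3 was at 856, 1732 and 3656 CPM in Control, 978, 1910 and 3745 CPM in IR and 1359, 1785 and 3884 CPM in IR+CBD. The libraries lay closest together in the middle range for Gata2 and in the high range for Cpa3, and the low-range values of Gata2 and Cpa3 were lowest in Control and highest in IR+CBD. Over single cells, the rank correlation with Mcpt8 was 0.71, 0.66 and 0.55 for Cpa3 and 0.56, 0.46 and 0.41 for Gata2 in Control, IR and IR+CBD (218, 180 and 176 cells). These correlations are given as a description, since the cells of a library share 1 preparation and all values are scaled to the total UMIs of the cell, whose own correlation with Mcpt8 was -0.34, -0.31 and -0.37.

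Some genes of the IgE receptor and of the granules were higher in the high than in the low range. Genes were compared between the high and the low range if they had at least 100 UMIs in the lineage cells of every library, and counted when the 2 ranges differed by at least 2-fold in the same direction in each of the 3 libraries. Of 4693 genes, 2.45% were higher and 0.639% lower by this count. In the list of 15 genes of the IgE receptor and its signalling, 4 of 14 compared were higher, namely Fcer1a, Fcer1g and the adaptor genes Lat and Lat2. Ms4a2 was 2.78, 1.96 and 1.81 times as high in Control, IR and IR+CBD and so was not counted. Fcer1g was at 357, 660 and 1252 CPM in the low, middle and high range of Control, with 380, 604 and 1225 CPM in IR and 296, 706 and 1575 CPM in IR+CBD. Among granule genes, 3 of 8 were higher (Cpa3, Prss34 and the granule membrane gene Cd63). Fcer1a, Cpa3 and Prss34 are rule genes, and without the genes of the rule the counts were 3 of 12 for the receptor list and 1 of 6 for granule genes. The rule used none of the genes of histamine and lipid mediators, where 3 of 5 were higher (Hdc, which encodes the histamine-forming enzyme, and the leukotriene genes Alox5 and Alox5ap). Hdc stood at 256, 441 and 706 CPM in Control, 239, 380 and 647 CPM in IR and 270, 367 and 801 CPM in IR+CBD.

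The Fcer1a difference between Control and the irradiated libraries was widest in the low range. The gene stood at 24.998 CPM there in Control against 201 in IR and 262 in IR+CBD, at 110, 466 and 332 CPM in the middle range, and at 677, 1202 and 1403 CPM in the high range. Prss34 was at 181, 71.6 and 91.8 CPM in the low range, 3354, 2075 and 1567 CPM in the middle range and 20381, 14395 and 20928 CPM in the high range. In cells chosen by at least 4 of the other 5 genes and cut at the same Mcpt8 levels, Fcer1a was at 18.0, 162 and 223 CPM in the low range of Control, IR and IR+CBD, where 55, 39 and 41 cells were found. There IR was at 9.03 times Control (6.16 to 13.7), against 4.54 times in the middle range (3.78 to 5.50) and 1.78 times in the high range (1.63 to 1.94), a reading added after the range values were seen. The order of the ranges therefore did not rest on the use of Fcer1a to choose the cells. Fcer1a was above its Control level in all 3 ranges of both irradiated libraries, and Prss34 below it in all but the high range of IR+CBD.

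Cytokine and surface genes were also among the genes higher in the high range. Of the cytokine and chemokine genes, 7 of 11 were higher (Il4, Il6, Csf1, Hgf, Osm, Ccl3 and Ccl4). Il6 was at 46.0, 70.2 and 536 CPM in Control, 29.7, 77.8 and 343 CPM in IR and 13.7, 55.1 and 760 CPM in IR+CBD, and Il4 at 11.5, 38.7 and 116 CPM, 29.1, 48.3 and 89.6 CPM, and 27.4, 61.8 and 113 CPM. Both were highest in the high range of each library, and an Il6 UMI was read in 49.5%, 48.9% and 43.2% of lineage cells against 0.166%, 0.265% and 0.311% of the B cell reference. Among surface proteins 9 of 17 were higher, led by Cd200r3 at 23.5, 63.8 and 282 CPM in Control, 13.4, 67.1 and 378 CPM in IR and 29.0, 135 and 657 CPM in IR+CBD. The chemokine receptor gene Ccr1 was 16.1, 26.8 and 16.4 times as high in the high range as in the low one, and the transcription factor gene Ets1 7.73, 8.50 and 11.7 times. Among receptors for cytokines, Il18rap and Il3ra, the alpha chain of the receptor for IL-3 that drives basophil growth, were higher and Ifngr1 lower, 3 of 13 in all. Cyp11a1 was 6.35, 9.46 and 6.06 times as high, as the only one of 5 genes of steroid synthesis, and it is itself a gene of the rule.

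Transcription factors split in 2 directions. Gata2, Cebpa and Cebpb were higher in the high range and Irf8 and Cebpe lower, 5 of 24 compared. Cebpa was at 66.5, 120 and 219 CPM in Control, 79.2, 133 and 232 CPM in IR and 83.7, 129 and 282 CPM in IR+CBD. Cebpe was at 106, 79.5 and 2.42 CPM in Control, 111, 149 and 14.0 CPM in IR and 41.9, 140 and 0 CPM in IR+CBD, and without the Prg2-high cells its low-range values were 54.0, 52.1 and 13.7 CPM. Its reads in the low and middle ranges thus came in good part from the Prg2-high cells.

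Of 14 genes of earlier progenitors, 3 were lower in the high range and none higher, the 3 being Mecom and the azurophil granule genes Elane and Prtn3. Elane was at 1294, 841 and 224 CPM in Control, 1274, 699 and 158 CPM in IR and 736, 1143 and 218 CPM in IR+CBD, so its low range was not the highest in IR+CBD. Kit was at 98.0, 65.2 and 48.5 CPM in Control, 96.7, 61.4 and 57.9 CPM in IR and 125, 68.4 and 25.1 CPM in IR+CBD, which falls short of 2-fold in IR. High cells were also the shallowest, with median UMIs of 13962.5, 14995 and 10707 against 23553, 25978.5 and 18452 in the low range. A UMI of the proliferation gene Mki67 was read in 66.3%, 47.5% and 50.9% of high cells and in 74.6%, 67.7% and 62.9% of low cells, at these unequal depths. No gene of 30 in the G2/M list passed 2-fold between the ranges, and 1 of 28 in the S phase list, Cdca7, was lower.

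**Figure D4:**
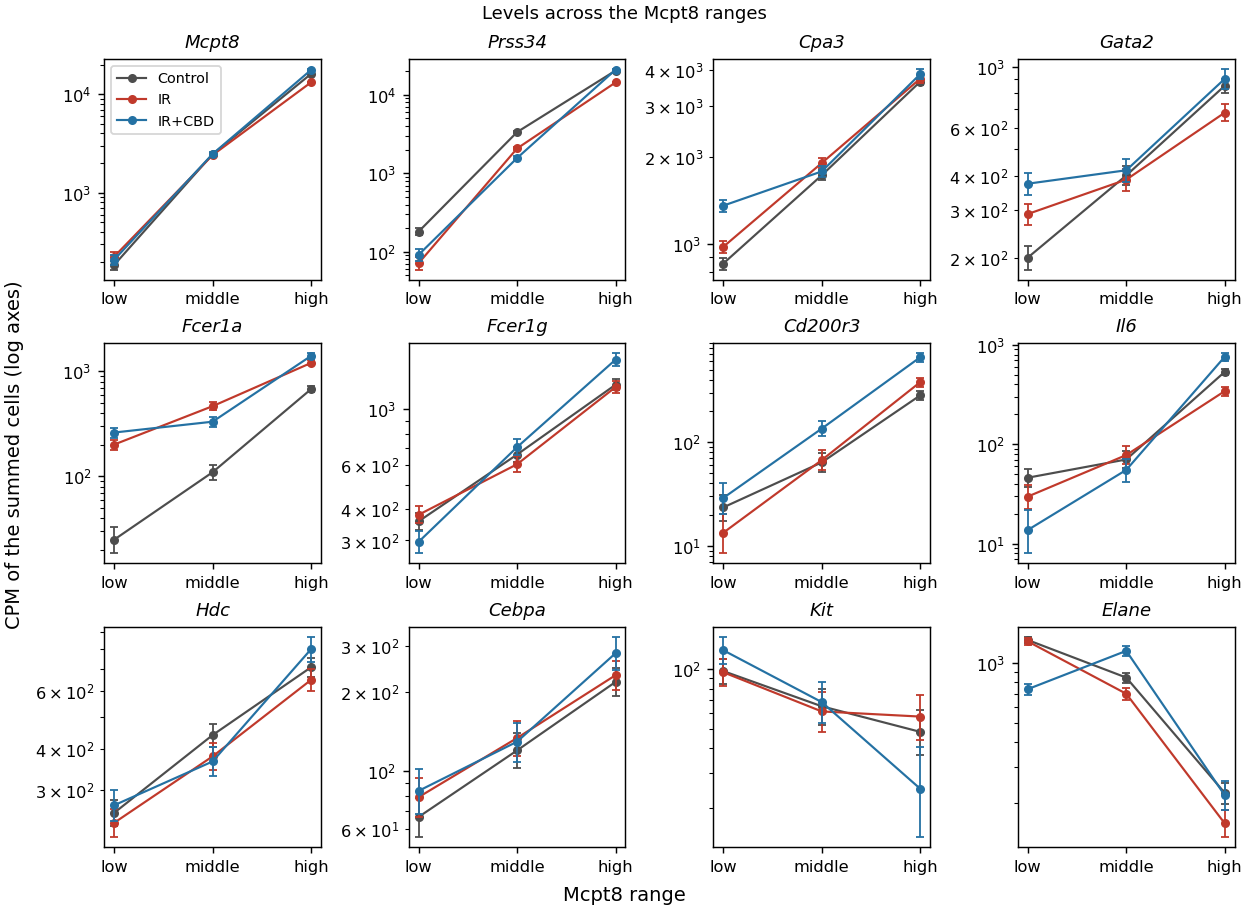
CPM of the summed cells (log axes) of 12 genes in the low, middle and high Mcpt8 range, 1 line per library, with exact Poisson 95% intervals. Gata2 runs from 201 to 853 CPM in Control, from 290 to 680 in IR and from 374 to 904 in IR+CBD, Fcer1a lies lowest in Control in each range, and Kit and Elane are lower in the high range.

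Between libraries few genes differed by 2-fold. Where 2 libraries together had at least 100 UMIs of a gene, 0.457% of 8092 were at least 2-fold higher and 0.334% lower in IR than in Control, 0.173% of 7522 higher and 0.359% lower in IR+CBD than in IR, and 0.284% of 7734 higher and 0.543% lower in IR+CBD than in Control. The IR library enters the first comparison and the second, and the Control library the first and the last, so these comparisons are not independent. List medians below are medians of the log2 ratio of CPM over genes with at least 20 UMIs, with 0.5 UMI added; over all genes the median was 0.01, 0.02 and 0.03 in these 3 comparisons.

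Lists of effector functions had few members past 2-fold. The IgE receptor list had medians of 0.04, 0.23 and 0.18 for IR over Control, IR+CBD over IR and IR+CBD over Control, and 1 of 15 of its members, Fcer1a, was past 2-fold in the first and the last comparison and none of 14 in the second. Of its 15 members, 13 were higher in IR+CBD than in IR, and 13 higher than in Control. By range, its median for IR+CBD over Control was 0.61 in the low range (13 of 15 higher), 0.03 in the middle and 0.33 in the high range. Granule genes had 0.11, -0.01 and 0.04, with Cma1 and Gzmb past 2-fold in IR and in IR+CBD over Control, 2 of 10 each. Gzmb, the granzyme B gene, was at 39.7, 116 and 118 CPM in Control, IR and IR+CBD, and the cells with Cma1 and no Prss34 described above held 83 of 184, 235 of 466 and 182 of 345 of its UMIs. Serglycin, the proteoglycan core that packs these proteases (Srgn), was at 4362, 5064 and 5075 CPM.

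Histamine and lipid mediator genes had medians of 0.02, 0.10 and 0.14. Hdc was at 432, 391 and 420.4 CPM, Slc18a2 at 166, 152 and 197 CPM and Alox5 at 116, 126 and 128 CPM in Control, IR and IR+CBD. None of these was past 2-fold between any pair of libraries. Ptgs2, the inducible prostaglandin synthase gene, was the 1 of 8 that was, at 15.5 CPM in IR and 36.5 CPM in IR+CBD, a ratio of 2.36 (1.71 to 3.28) for IR+CBD over IR.

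Cytokine and chemokine genes had medians of -0.08, 0.22 and 0.05, and none of 12 was past 2-fold. The chemokine gene Ccl4 was at 1372, 809 and 1003 CPM and Ccl3 at 863, 572 and 719.8 CPM in Control, IR and IR+CBD. A Ccl3 UMI was read in 65.1% of Control cells, 46.7% of IR cells and 45.5% of IR+CBD cells. In the B cell reference it was read in 7.21%, 3.68% and 3.53%, at their lower depth. Il6 was at 184, 128 and 191 CPM, and Il4 at 47.7, 51.1 and 58.3 CPM, where the intervals of all 3 ratios include 1. For Ccl4 the median cell was at 1.94 UMIs per 10000 in Control and at 0 in both irradiated libraries, where 101 of 180 and 94 of 176 cells had none.

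Receptors, transcription factors and surface proteins differed little. Cytokine receptors had medians of -0.07, 0.19 and 0.18, and only Flt3, a receptor of early progenitors, was past 2-fold lower, at 19.6, 7.23 and 6.14 CPM in Control, IR and IR+CBD. Il3ra was at 84.2, 106 and 109 CPM. The transcription factor list had medians of 0.07, 0.12 and 0.17; Irf8, a monocyte and dendritic cell factor, was at 68.8, 30.4 and 39.9 CPM, and Meis1, a stem and progenitor cell factor, at 67.8, 105 and 144 CPM, which is 2.12 times as high in IR+CBD as in Control (1.83 to 2.47). Runx1, a factor shared by many blood lineages, was at 1667, 1833 and 2312 CPM. Surface proteins had medians of 0.01, 0.17 and 0.04 with none past 2-fold, Cd200r3 coming nearest at 1.94 (1.72 to 2.20) for IR+CBD over Control.

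Interferon-response genes were mostly higher in IR than in Control and mostly lower in IR+CBD than in IR. Of 44 compared, 41 were higher in IR than in Control, with a median log2 ratio of 0.82, and 6 of 25 were past 2-fold (Irf9, Rtp4, Ifi27l2a, Ifi27, Xaf1 and Irgm1). In IR+CBD 42 of 43 were lower than in IR, with a median of -0.87, and 7 of 22 were past 2-fold (Isg15, Irf9, Rtp4, Ifi27l2a, Ifi27, Xaf1 and Parp9), while IR+CBD over Control gave a median of 0.12. Rtp4, an interferon-induced antiviral gene, was at 6.69, 39.2 and 7.16 CPM in Control, IR and IR+CBD. It was read in 7.80%, 41.7% and 7.39% of lineage cells, and in 5.05%, 24.0% and 3.95% of the B cell reference at their lower depth. Irf9, part of the complex that turns on these genes, was at 11.7, 33.2 and 16.4 CPM. Isg15 stood at 26.5, 30.4 and 10.2 CPM, lower in IR+CBD than in both other libraries.

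The difference was present in all 3 Mcpt8 ranges and outside the lineage too. In the low, middle and high range the interferon list had medians of 1.08, 0.68 and 0.78 for IR over Control and -0.65, -0.88 and -0.73 for IR+CBD over IR. The cells outside the lineage gave 1.26 and -1.14, and the B cell reference 1.49 and -1.19. Without the Prg2-high cells the lineage values were 0.93 and -0.82. The list as a whole was therefore not particular to basophil and mast cell lineage cells, and whether its size differed between cell types was not tested.

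Genes of MHC class I and peptide loading followed the same order with smaller ratios. All 17 were higher in IR than in Control (median 0.77) and 16 of 17 were lower in IR+CBD than in IR (median -0.38), with a median of 0.31 for IR+CBD over Control. The nonclassical gene H2-Q7 was at 52.7, 223 and 101 CPM and H2-Q6 at 19.2, 54.6 and 30.7 CPM in Control, IR and IR+CBD, the 2 of 16 past 2-fold in IR; these genes are near copies, so their reads may be shared between them. B2m, the common light chain, was at 941, 1811 and 1298 CPM and H2-K1 at 540.0, 1011 and 777 CPM. In other cells the list had medians of 0.64 and -0.47 for the first 2 comparisons.

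Immediate early genes, whose transcription answers signals within minutes, ran in the opposite order. All 32 compared were lower in IR than in Control (median -0.47), and 28 of 32 were higher in IR+CBD than in IR (median 0.37). Egr1 was at 647, 443 and 815 CPM, Fos at 395, 272 and 456 CPM and the G protein regulator gene Rgs1 at 345, 213 and 436 CPM in Control, IR and IR+CBD. Few members passed 2-fold. Nr4a1 was lower than in Control in both IR and IR+CBD (1 of 29 each), and Nr4a2 and Rgs1 were higher in IR+CBD than in IR (2 of 28). By Mcpt8 range the medians were -0.21, -0.40 and -0.62 for IR over Control and 0.23, 0.10 and 0.71 for IR+CBD over IR, so the ratio was largest in the high range, where 28 of 28 genes were higher in IR+CBD. Other cells gave -0.70 and 0.17, and -0.54 for IR+CBD over Control, where the lineage gave -0.01. The B cell reference gave -0.11, 0.20 and -0.01 for the 3 comparisons.

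Genes of DNA replication were slightly lower in IR+CBD. The S phase list had medians of 0.03, -0.31 and -0.25, with 38 of 39 genes lower in IR+CBD than in IR and none past 2-fold. Rrm2, a subunit of ribonucleotide reductase, was at 95.6, 83.3 and 61.0 CPM and the sliding clamp gene Pcna at 208, 202 and 167 CPM in Control, IR and IR+CBD. The lineage cells of IR+CBD were also the shallowest, and the part of depth was not tested. The median for IR+CBD over IR was -0.38 in the low range, -0.17 in the middle and -0.12 in the high range, and -0.10 in other cells. G2/M genes had medians of -0.09, 0.09 and 0.01 over all lineage cells but had medians of opposite sign by range. For IR+CBD over IR the median was 0.33 in the low range (35 of 42 higher), 0.03 in the middle and -0.30 in the high range (35 of 40 lower). Against Control, IR+CBD gave 0.28, -0.08 and -0.44 in the same order, with 37 of 40 lower in the high range. Over all lineage cells Mki67 was at 177, 174 and 180.4 CPM.

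Genes of the p53 response, which radiation engages through DNA damage, had medians of -0.13, 0.19 and 0.02. Cdkn1a, the cell cycle inhibitor p21, was at 88.5, 48.9 and 55.6 CPM in Control, IR and IR+CBD, a ratio of 0.552 (0.464 to 0.657) for IR over Control. Of the 2 proapoptotic genes on the list, Pmaip1 was higher in IR, at 19.4, 40.4 and 36.1 CPM, and Bbc3 lower in IR alone, at 23.7, 11.2 and 23.5 CPM. Of 22 genes of the list compared, 16 were lower and 6 higher in IR than in Control. In IR+CBD 14 of 22 were higher and 8 lower than in IR. The BCL2 family had medians of 0.12, -0.06 and -0.01, and the antiapoptotic gene Bcl2 was at 139, 148 and 171 CPM.

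**Figure D5:**
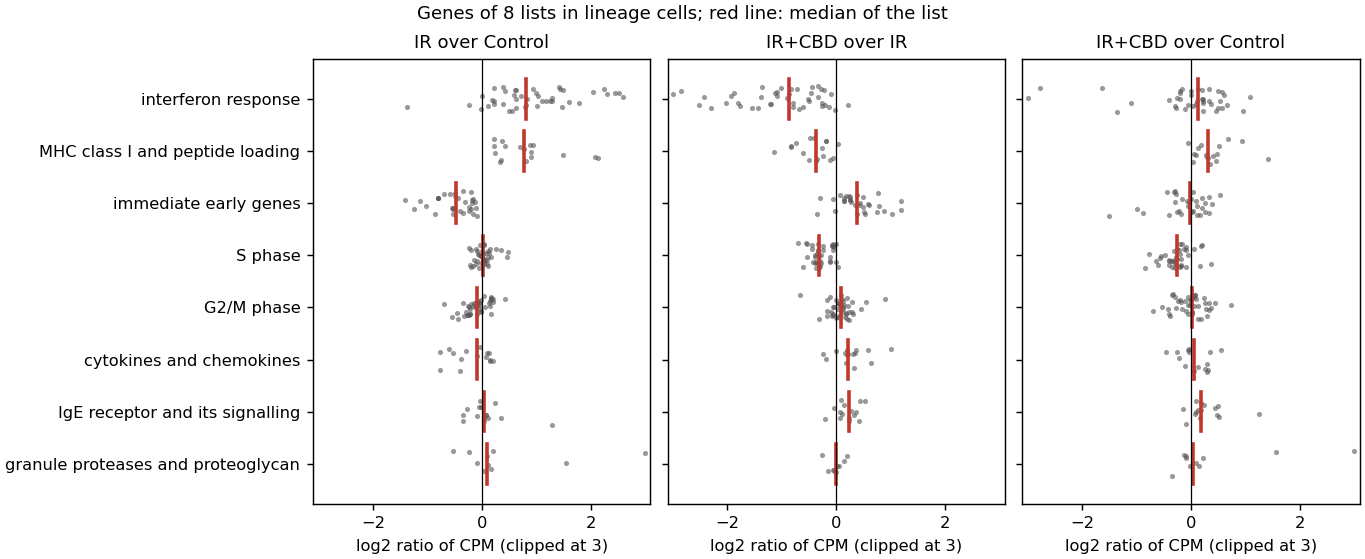
Each point is 1 gene of 8 lists in lineage cells, with the log2 ratio of CPM on the x axis (clipped at 3) for IR over Control, IR+CBD over IR and IR+CBD over Control; red lines are list medians. Interferon-response genes have medians of 0.82, -0.87 and 0.12 and immediate early genes of -0.47, 0.37 and -0.01.

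Genes reported as binding or responding to cannabidiol were mostly too sparse to compare. Of 14 such genes, 7 reached 20 UMIs, with medians of -0.15, -0.03 and -0.32, and none was past 2-fold. Cnr2, the cannabinoid receptor of immune cells, was at 25.7, 25.7 and 47.4 CPM in Control, IR and IR+CBD, a ratio of 1.84 (1.42 to 2.40) for IR+CBD over IR. It was read in 34.9%, 41.1% and 45.5% of lineage cells and in 11.2%, 14.3% and 13.8% of the B cell reference. The B cells were shallower, so these percentages do not compare the Cnr2 level of the 2 cell sets. Progenitor genes had medians of 0.05, -0.04 and 0.05 and steroid synthesis genes of -0.02, 0.00 and 0.03.

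The extremes of single genes between libraries were of 2 kinds. For some, 1 cell held most of the UMIs. The globin genes Hba-a1 and Hbb-bs led the list of genes higher in IR, but 97.5% and 98.4% of their IR UMIs lay in 1 cell, as did 97.0% of those of Gzma. Likewise 99.9% of the Control UMIs of Ighg2b and 96.8% of those of Igkc, both immunoglobulin genes, lay in 1 cell. The neutrophil granule genes Camp (866, 469 and 28.0 CPM in Control, IR and IR+CBD) and Ngp (714, 349 and 53.9 CPM) ranked among the 10 lowest genes of IR+CBD against both other libraries, and 38.2% and 44.3% of the Camp UMIs in Control and IR lay in 1 cell each. Retnlg, also a neutrophil marker, went the other way, at 40.6, 233 and 308 CPM in Control, IR and IR+CBD. It was past 2-fold higher in both irradiated libraries than in Control, also without its top cells. Hba-a1, Hbb-bs, Gzma and Ighg2b were still past 2-fold between IR and Control without their top cells, at low counts in what was left, whereas Igkc was not. Without the top cell of each gene in each library, 34 of 37 genes higher and 24 of 27 lower in IR than in Control were still past 2-fold, as were 11 of 13 and 23 of 27 in IR+CBD over IR and 20 of 22 and 37 of 42 in IR+CBD over Control.

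Other extremes were spread over many cells. Besides Fcer1a, the genes past 2-fold higher in both irradiated libraries than in Control included Scin, Clnk and Tjp1. Scin, which encodes the actin-severing protein scinderin, was at 24.6, 101 and 87.6 CPM in Control, IR and IR+CBD. Clnk, an adaptor of immunoreceptor signalling in mast cells, was at 18.1, 61.4 and 51.8 CPM. Tjp1, a junction scaffold gene, was at 4.53, 25.4 and 28.3 CPM. Outside the lineage Scin was at 3.71, 2.74 and 3.92 CPM and Clnk at 17.0, 13.5 and 14.7 CPM, with no higher level in the irradiated libraries, whereas Tjp1 was at 3.72, 20.6 and 18.6 CPM, as in the lineage. Without the top cells the IR over Control ratios were 4.04 for Scin, 3.45 for Clnk and 5.96 for Tjp1. Id2, an inhibitor of helix-loop-helix factors, was at 9.71, 20.2 and 33.4 CPM.

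IR+CBD over IR gave a shorter list. Alox15, a lipoxygenase gene almost absent from other cells (0.0473, 0.0555 and 0.0645 CPM), was at 18.6, 12.2 and 28.0 CPM in lineage cells of Control, IR and IR+CBD, a ratio of 2.29 (1.59 to 3.33). Olr1, a scavenger receptor gene, was at 38.2, 16.0 and 38.5 CPM. For both genes IR was the low library and IR+CBD close to or above Control. Cd74, the MHC class II invariant chain, was at 65.4, 24.4 and 59.3 CPM, but 73.0% of its IR+CBD UMIs lay in 1 cell.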

How the data were processed

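Per the labels and the study's methods, each library was made from sorted marrow cells with 10x Genomics droplets, and the authors made the gene-by-cell matrices with Cell Ranger (version 4.0 in the submitters' processing notes, 7.0.1 in the matrix header). The deposited values are whole UMI counts per gene and barcode, with no normalization. The genome named in the processing notes, GRCm39, differs from that of the upstream sequences, so only the latter's coordinates are printed.

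Barcodes with at least 200 genes and at most 5% mitochondrial UMIs were kept, as in the study's methods, but doublets were kept here and their removal (Scrublet, the highest-scoring 0.8% per 1000 cells) was an alternative. Counts were summed over the lineage cells of a library and scaled to CPM. Python 3.11.15 with numpy 2.4.6, scipy 1.17.1, pandas 2.3.3, scanpy 1.11.5 and matplotlib 3.10.9 was used. For shares the Clopper-Pearson method gave the 95% interval, for CPM the exact Poisson limits, and for ratios a binomial interval conditional on the summed count; they were checked on simulated data. No p-value was computed, since each group is 1 library.

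Named genes were the 6 of the rule, those of the gene lists, the 10 highest and 10 lowest per comparison by the interval bound nearest to 1, the 20 highest over other cells, and the 15 highest and 15 lowest between Mcpt8 ranges, each with at least 100 UMIs. The lineage, its rule and the lists were chosen with earlier results of these data known. The cut on Prg2 and the limits for other cell types were set after its values were seen. Alternatives covered doublets, the rule's gene number, filters, depth, scaling, pseudocount, minimum UMIs and fold. No cell was clustered or assigned a type beyond the marker rules.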

Additional observations from a re-analysis of the deposited data

How the results depend on the processing

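No paired analysis was possible because each group is 1 library. Of 1158 values recomputed under alternatives, 1050 kept their direction and size within the interval or within 1.5 times the count, and the cause of the changes below was not tested unless fewer cells or genes entered. With doublets removed, ratios reversed for Cpa3 (IR over Control 0.905, IR+CBD over Control 0.932), Gata2 (IR+CBD over Control 0.993), Ms4a2 (IR+CBD over Control 0.956) and the G2/M median (IR over Control 0.11), Gata2 was at 0.797 and Mcpt8 at 0.677 for IR over Control, Mcpt8 at 0.736 for IR+CBD over Control, and 11 genes were lower in IR+CBD than in Control. With at least 3 of the 6 genes, the G2/M medians were 0.043 and -0.058 for the first 2 comparisons, 71 genes were higher and 50 lower in IR than in Control and 34 higher in IR+CBD than in Control; Gata2 was at 1.05 (IR over Control) and 1.25 (IR+CBD over Control), Mcpt8 at 0.823 and 0.915, and Cpa3 at 1.08 (IR+CBD over IR) and 1.15 (IR+CBD over Control). With at least 5, Gata2 was at 0.878 and 1.08, Mcpt8 at 0.819 (IR over Control) and 1.15 (IR+CBD over IR), Cpa3 at 1.05 (IR+CBD over Control), and 8 genes were higher in IR+CBD than in IR. Thinned cells put 26.8% of IR lineage cells in the low range. Weighting the Mcpt8 ranges equally moved Mcpt8 to 1.28 (IR+CBD over IR) and reversed it to 1.08 (IR+CBD over Control), and median-of-ratios scaling gave 0.920.

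Counts of genes past 2-fold, in the order higher and lower for IR over Control, IR+CBD over IR and IR+CBD over Control, were 87, 77, 41, 62, 59 and 84 with a minimum of 50 UMIs, 19, 13, 3, 14, 10 and 18 with 200 UMIs, and 177, 143, 138, 128, 201 and 167 at 1.5-fold. The 3 alternatives that follow were chosen after seeing the data. Without Prg2-high cells, Mcpt8 was at 0.820 and 0.914 and Cpa3 at 1.04 and 1.06 for IR and IR+CBD over Control. Without cells over the limit for another cell type, Prss34 reversed to 0.991 for IR+CBD over IR, Gata2 was at 1.09, Mcpt8 at 1.01 and Cpa3 at 0.976 there, Mcpt8 at 0.869 and Cpa3 at 1.06 for IR+CBD over Control, and the counts were 7 higher and 16 lower in IR+CBD than in IR and 25 lower in IR+CBD than in Control. Leaving out the top cell of each gene moved none of these counts by over 1.5 times. The direction of the Fcer1a ratio for IR over Control held in all 11 alternatives run, from 1.84 to 2.55, as did that of the interferon list. With 176 to 218 cells per library, the ratio of lineage shares for IR+CBD over IR had an interval of 0.795 to 1.22 from counting error alone.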
